A study of Mus musculus with 2 samples.

Results

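The matrix metalloproteinases (Mmp), the ADAM and ADAMTS proteinases with the ADAMTS-like proteins, and the tissue inhibitors of metalloproteinases (Timp) were compared between newborn mouse tooth and skin. The members were taken by gene symbol from the array annotation. The rule used no signal values, but it was set with earlier results of these data known. They numbered 83 of the 24323 named genes on the array: 23 Mmp, 32 Adam, 19 Adamts, 5 Adamtsl and 4 Timp genes, read by 124 probes. The tooth sample and the skin sample both came from wild-type mice at postnatal day 0 (P0), with no treatment named. Total RNA of each tissue was hybridised with a single dye to 1 Agilent whole-genome array, and the number of animals behind each array was not given. In the study, the contrast served the question of whether tooth cells that formed ectopic hair in Sox21 mutants had changed their fate.

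Metalloproteinases are zinc-dependent enzymes that cut collagens, proteoglycans, enamel matrix proteins and cell surface proteins. Most are made as inactive precursors, some are anchored in the membrane, and the TIMPs block them by binding to the active site. In the forming tooth they act on the enamel matrix, on procollagen of the dentin and on the bone around the germ, and in skin on the dermal matrix and on growth factors of the epidermis and hair follicle.

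A level below is log2 of the processed intensity minus the 75th percentile of that array, and a difference is skin minus tooth, so that a negative difference was higher in tooth. With 1 array per tissue there was no replicate spread and no test, and every difference describes these 2 arrays. The error after a difference combines the extraction software's error estimates of both spots, which cover the spot and the scanner but not animals or RNA preparation. For a probe printed repeatedly, the spot errors were combined into an error of the mean, which is smaller. A 2-fold difference, 1 on the log2 scale, was used to sort members. In whole tissue, fewer cells of a type and less RNA per cell cannot be told apart.

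The tissues matched their labels. For each list, marker levels were taken off the log scale before they were added. A summed level is therefore a linear sum of intensities relative to the percentile of that array. The summed level of 5 ameloblast markers was 2155 in tooth and 0.252 in skin, where Amelx, Ambn, Enam and Amtn were not well above background. That of 5 epidermis markers was 6.0 in tooth and 3760 in skin. Markers of other cell types were present too: 6 osteoclast markers summed to 297 in tooth and 18.1 in skin, 5 skeletal muscle markers to 8.76 and 88.1, and of 4 fat markers 0 were well above background in tooth and 3 in skin. Probes well above background made up 56.7% of the tooth array and 52.5% of the skin array.

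On the array, 10 of the Mmp genes lie side by side on chromosome 9, and the start regions of 6 of them are shown because the cluster holds the members with the largest bounds as well as members without signal. Each line gives the 120 bases before the annotated start (RefSeq, GRCm38.p6, plus strand), with matches in capitals. The letters searched were TGANTCA for an AP-1 site. They were TATAAA for a TATA box. For a RUNX site they were AACCACA.
Mmp13, chr9:7272394-7272513: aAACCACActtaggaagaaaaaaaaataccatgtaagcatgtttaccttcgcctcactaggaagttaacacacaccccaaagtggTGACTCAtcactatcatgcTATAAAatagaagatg
Mmp20, chr9:7628111-7628230: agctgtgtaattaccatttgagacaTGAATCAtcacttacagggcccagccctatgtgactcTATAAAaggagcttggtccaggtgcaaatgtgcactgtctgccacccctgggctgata
Mmp3, chr9:7445702-7445821: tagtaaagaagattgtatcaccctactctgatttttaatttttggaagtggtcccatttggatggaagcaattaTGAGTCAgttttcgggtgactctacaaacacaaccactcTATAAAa
Mmp1a, chr9:7464021-7464140: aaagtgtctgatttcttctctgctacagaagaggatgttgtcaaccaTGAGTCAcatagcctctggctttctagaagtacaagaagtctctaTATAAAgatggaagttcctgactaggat
Mmp10, chr9:7502222-7502341: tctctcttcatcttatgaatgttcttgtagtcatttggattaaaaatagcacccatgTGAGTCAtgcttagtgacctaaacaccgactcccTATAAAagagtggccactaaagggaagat
Mmp8, chr9:7558309-7558428: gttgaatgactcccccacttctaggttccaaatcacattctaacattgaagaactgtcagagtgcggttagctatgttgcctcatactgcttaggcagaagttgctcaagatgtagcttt

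Mmp13, Mmp20, Mmp3, Mmp1a and Mmp10 each held both an AP-1 and a TATA match, and Mmp8 held neither. The N of the AP-1 letters stands for any base, and it was C in Mmp13, G in Mmp3, Mmp1a and Mmp10, and A in Mmp20. The first base of the AP-1 match lay 35 bases before the start in Mmp13, 46 in Mmp3, 63 in Mmp10, 73 in Mmp1a and 95 in Mmp20. That of the TATA match lay 7 bases before the start in Mmp3, 16 in Mmp13, 28 in Mmp1a, 29 in Mmp10 and 58 in Mmp20. The Mmp13 match to the RUNX letters lay 119 bases before the start. The same letters were therefore present in members with high signal in tooth and in members with no signal well above background in either tissue.

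RefSeq held 57 promoters for 52 of the 83 members. Over the 250 bases before the start, the AP-1 letters (read on both strands) occurred in 11 of these 57 promoters, 19.3%, against 6.75% of all 32851 promoters. They occurred in 8 of the 21 Mmp promoters, 38.1%, and all 8 belonged to the chromosome 9 cluster, which had 12 promoters in the table. None of the 9 Mmp promoters from elsewhere held them. The TATA letters (read on the given strand) were in 7 of the 12 cluster promoters, in 1 of the 9 other Mmp promoters and in 7.59% of all promoters. The RUNX letters (both strands) were in 3 of the 21 Mmp promoters and 4.40% of all. These are matches of letters within this window and not measured binding.

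Of the 83 members, 57 gave signal well above background on 1 array or both, 68.7% against 71.6% of all named genes. On both arrays there were 44 members, 53.0% against 62.8%. On the tooth array alone there were 10, 12% against 5.77%, and on the skin array alone 3, 3.61% against 3.03%. The remaining 26 were not well above background in either tissue. These were 10 Mmp genes (Mmp1a, Mmp1b, Mmp3, Mmp10, Mmp12, Mmp16, Mmp19, Mmp21, Mmp25 and Mmp27), 13 Adam genes, Adamts13, Adamts20 and Adamtsl3.

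Among the 44 members measured on both arrays, 14 were at least 2-fold higher in tooth, 31.8% against 12.3% of all genes measured on both, and 5 passed 2-fold towards skin, 11.4% against 11.4%. The median difference was -0.08, and that of all genes was -0.02. With members measured on 1 array taken at their bound, 19 of 57 were at least 2-fold higher in tooth, 33.3% against 13.3%, and 8 in skin, 14.0% against 14.0%. The share of members on the tooth side was thus above the share of all genes, and on the skin side it equalled it. By family, tooth and skin held 5 and 0 of the 7 Mmp genes measured on both arrays, 3 and 1 of 15 Adam genes, 3 and 3 of 14 Adamts genes, 1 and 0 of 4 Adamtsl genes, and 2 and 1 of 4 Timp genes. The 2-fold line fell between Mmp11 (-1.34) and Mmp17 (-0.98) on the tooth side, and between Adam26b (1.19) and Adam8 (0.93) on the skin side.

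**Figure D1:**
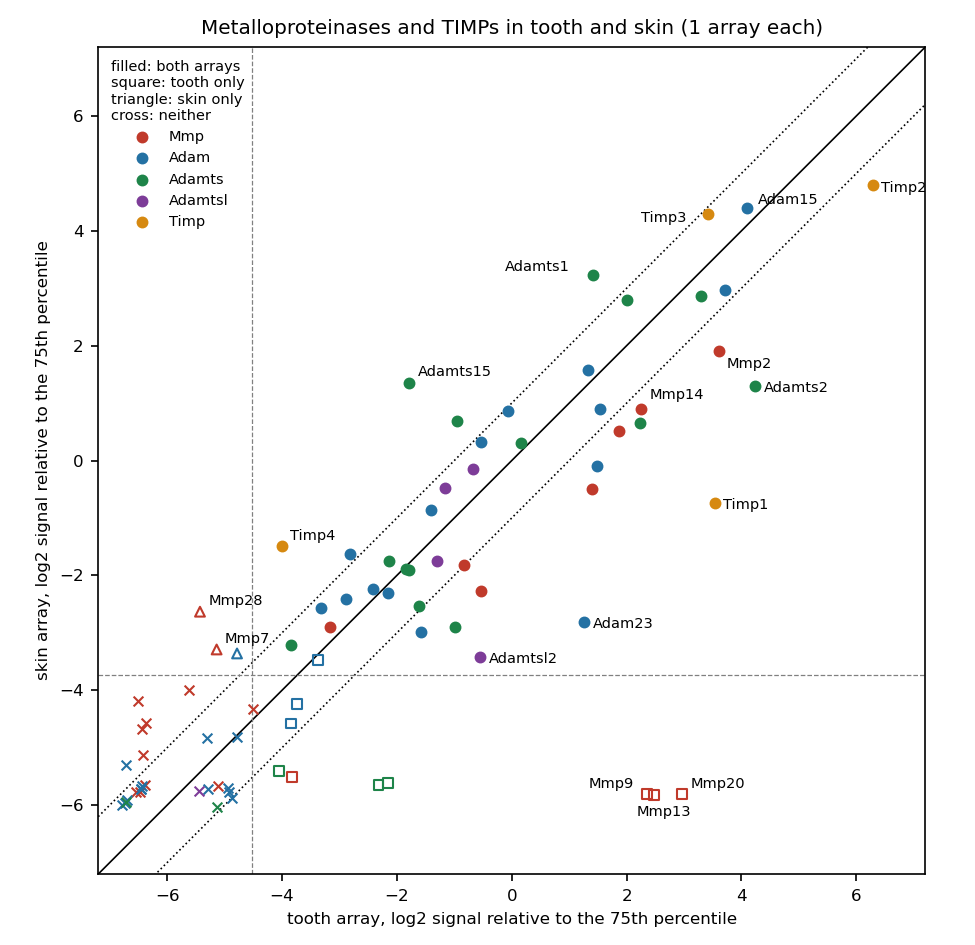
Level of each of the 83 members on the tooth array (x axis) and on the skin array (y axis), both as log2 signal relative to the 75th percentile, coloured by family. The solid line is equality, dotted lines are 2-fold, and dashed lines are the lowest signal well above background on each array. Mmp9, Mmp13 and Mmp20 lie far below the line with skin values in the background, and Timp1 and Adam23 are the members farthest below it among those measured on both arrays.

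Among the members, the largest bounds belonged to 3 secreted Mmp genes that were bright in tooth and not well above background in skin. Mmp20, the enamelysin that ameloblasts secrete to process amelogenin (probe at chr9:7674310-7674369, mm9), had a level of 2.97 in tooth against -5.80 in skin, so the tooth value was higher by at least 104-fold. Mmp13, a collagenase of bone and cartilage (chr9:7282762-7282821), had 2.47 and -5.82 and was at least 73.7-fold higher. Mmp9, a gelatinase made by osteoclasts and by myeloid cells (chr2:164780620-164780679), had 2.35 and -5.81 and was at least 67.8-fold higher. The bound is the tooth value over the lowest signal well above background on the skin array, so the size beyond it was not measured. With normexp background correction the bounds fell to 27.8-fold for Mmp20, 20.1-fold for Mmp13 and 19.1-fold for Mmp9. With the lenient call of signal the tooth value was set over the skin value itself, which gave 438-fold, 313-fold and 286-fold. Those skin values were surrogates set by the extraction software for very dim spots, and for Mmp9 a mean of spots that were mostly surrogates.

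Mmp9 was 1 of only 2 members whose probe was printed repeatedly. Its 10 spots on the tooth array had an SD of 0.09 and ranged from 2.25 to 2.49, and 0 of its 10 spots on the skin array were well above background. Since the skin spots were in the background, the lack of overlap with the tooth spots adds nothing to the bound. The spread of the spots is technical, within 1 array. Osteoclast markers were 16.4-fold higher in summed level in tooth, with 6 of 6 well above background there and Atp6v0d2 and Calcr not well above background in skin. The neutrophil list summed to 27.8 in tooth and 8.86 in skin, with Mpo and Ltf not well above background in skin. Of its 4 markers measured on both arrays, 3 were at least 2-fold higher in tooth. Elane, which made up most of the skin sum, was level, with 2.84 in tooth and 2.78 in skin on the log scale. The odontoblast and osteoblast list summed to 343 in tooth and 0.652 in skin, and the cartilage list to 3.75 and 0.366. Of the cartilage markers, Col2a1 and Acan were higher in tooth and Col9a1 in skin. Col10a1 and Matn1 were not well above background in either tissue. The part of any of these cell types in the Mmp9 and Mmp13 values was not tested.

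Mmp8, the neutrophil collagenase (chr9:7568238-7568297), was well above background in tooth alone, at -3.83. That value lay below the lowest signal well above background on the skin array, -3.73, so no fold was computed. The other collagenases, Mmp1a and Mmp1b, were not well above background in either tissue. Mmp13 was thus the sole collagenase of the 4 with a measured fold or bound.

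Every other Mmp gene past 2-fold on both arrays was higher in tooth. Mmp2, the gelatinase that fibroblasts secrete (chr8:95376840-95376899), had 3.60 in tooth against 1.91 in skin, a difference of -1.69 ± 0.20. Mmp14, the membrane-type enzyme that activates the Mmp2 precursor on the cell surface (chr14:55058775-55058834), had 2.25 and 0.89, a difference of -1.36 ± 0.20. Both partners were therefore higher in tooth, by 3.23-fold and 2.57-fold.

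Mmp15, another membrane-type enzyme (chr8:97897703-97897762), had -0.54 in tooth against -2.27 in skin, a difference of -1.72 ± 0.24. Mmp17, anchored by a glycolipid (chr5:130113835-130113894), had -0.84 and -1.82, a difference of -0.98 ± 0.23, just short of 2-fold. Mmp24 had -3.16 and -2.89, a difference of 0.27 ± 0.29, smaller than its error. Mmp16 and Mmp25 were not well above background in either tissue. Of the 4 membrane-type genes measured on both arrays, 2 were past 2-fold, both in tooth, beside 12.3% of all genes so measured. Mmp15 fell to 2.06-fold with normexp.

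Mmp11, stromelysin 3, made by stromal cells (chr10:75386024-75386083), had 1.86 in tooth against 0.51 in skin, a difference of -1.34 ± 0.20, and its other probe gave -1.26. Mmp23, which carries an N-terminal membrane anchor (chr4:155025377-155025436), had 1.39 and -0.49, a difference of -1.88 ± 0.21. The classical stromelysins Mmp3 and Mmp10 and the macrophage elastase Mmp12 were not well above background in either tissue.

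Of the 23 Mmp genes, Mmp7 and Mmp28 alone passed 2-fold towards skin, and both were dim. Mmp28, epilysin, known from keratinocytes (chr11:83257262-83257321), had -2.63 in skin against -5.43 in tooth, so the skin value was higher by at least 3.69-fold. The second probe of the gene had no signal well above background. Mmp7, matrilysin, an enzyme of glandular epithelia (chr9:7697641-7697700), had -3.29 in skin and -5.14 in tooth and was at least 2.34-fold higher.

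**Figure D2:**
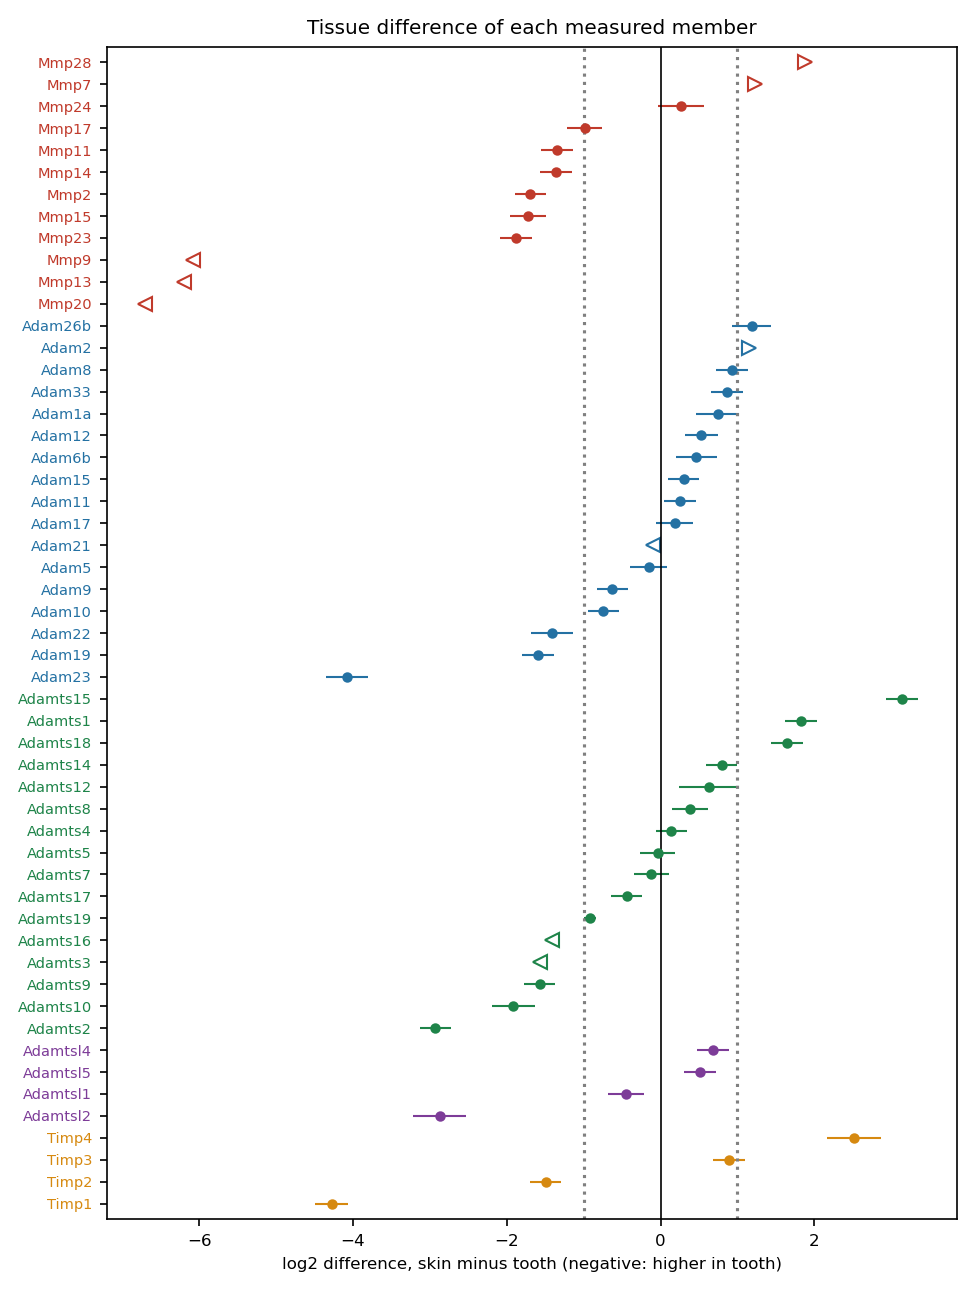
Difference between skin and tooth (x axis, log2) for members well above background on at least 1 array, grouped and coloured by family. Points with bars are members measured on both arrays with the error of the difference from the extraction software, open triangles are bounds for members measured on 1 array, and dotted lines mark 2-fold. The Mmp genes sit mostly left of 0, while Adam and Adamts genes lie on both sides. Mmp8, Adam26a, Adam39 and Adamts6 have no bound and are not drawn.

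Along chromosome 9 (mm9), the probes of 10 Mmp genes lay within 415 kb, in the order Mmp13, Mmp12, Mmp1b, Mmp3, Mmp1a, Mmp10, Mmp8, Mmp27, Mmp20 and Mmp7. Signal was found for 4 of them: Mmp13 at the start, Mmp8 at 285 kb and Mmp20 at 392 kb in tooth, and Mmp7 at 415 kb in skin. Mmp20 and Mmp7 were 23.3 kb apart and were measured in opposite tissues. The 5 genes between Mmp13 and Mmp8 were not well above background in either tissue.

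**Figure D3:**
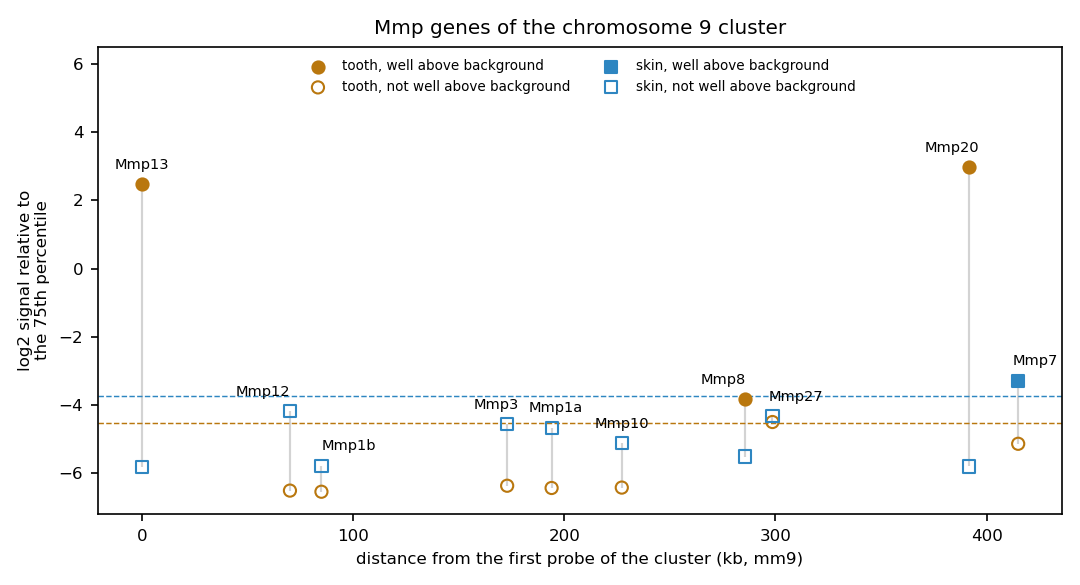
Level on the tooth array (circles) and the skin array (squares) of the 10 Mmp genes of the chromosome 9 cluster against the distance of each probe from the first (kb). Filled symbols were well above background, and dashed lines are the lowest signal well above background on each array; open symbols carry no order. Mmp13 and Mmp20 stand out in tooth, and Mmp7 is the single filled skin symbol.

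Neighbouring members differed elsewhere too. Adamts15 and Adamts8 lie 44.0 kb apart on chromosome 9 and had differences of 3.14 and 0.38. Adamts1 and Adamts5, 104 kb apart on chromosome 16, had 1.82 and -0.04. Adamtsl2 and Adamts13, 112 kb apart on chromosome 2, had -2.87 and no signal well above background.

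Adam11, Adam22 and Adam23 lack protease activity and act as adhesion and receptor proteins, best known from the nervous system. Adam23 (chr1:63639339-63639398) had 1.26 in tooth against -2.81 in skin, a difference of -4.08 ± 0.27 and 16.9-fold, which fell to 7.29-fold with normexp and to 4.15-fold with the mean of all its probes. Adam22 (chr5:8072390-8072449) had -1.58 and -2.99, a difference of -1.41 ± 0.27. These were among the 3 Adam genes at least 2-fold higher in tooth.

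Adam23 had 3 further probes. On 2 of them signal was well above background in tooth alone, at -2.21 and -3.07, and on 1 it was not in either tissue, so the other probes had no measured fold. For Adam11 the probe that stands for the gene gave 0.25 ± 0.20 and the other -1.03, with both probes measured on both arrays. The direction for Adam11 therefore depended on the probe.

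The sheddases, which release growth factors and cytokines from the cell surface, were measured on both arrays for 8 of 9 genes, of which 1 was past 2-fold, beside 23.8% of all genes. That gene was Adam19, a meltrin (chr11:45960740-45960799), with 1.49 in tooth against -0.10 in skin, a difference of -1.60 ± 0.21. Adam10, the main Notch sheddase, had 3.72 and 2.97, a difference of -0.75 ± 0.20. Adam17, the sheddase of tumour necrosis factor and of EGF receptor ligands, had -2.41 and -2.23, a difference of 0.18 ± 0.24, smaller than its error.

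Adam9 had a difference of -0.63 ± 0.20, with 1.53 in tooth and 0.90 in skin. Adam15 had 0.30 ± 0.20, with 4.10 and 4.40. Adam33, known as an asthma-linked gene of mesenchymal cells, had 0.87 ± 0.21, with -0.54 and 0.32, and its other probes gave 0.54 and 1.45. Adam8, a sheddase of leukocytes and osteoclasts (chr7:147164873-147164932), had -0.07 and 0.86, a difference of 0.93 ± 0.21, just short of 2-fold on the skin side, and its source was not tested. Adam28 was not well above background in either tissue.

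Adam12, the other meltrin, was read by a probe over an exon junction, shown here because the probes of this gene disagreed (chr7:141079625-141081861, mm9, minus strand). Capitals mark a stop codon that closes a frame open along the rest of the probe.
Adam12 probe: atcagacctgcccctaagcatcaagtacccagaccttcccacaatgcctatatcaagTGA
This probe gave -1.40 in tooth against -0.87 in skin, a difference of 0.53 ± 0.21. A second probe downstream of it was well above background in tooth alone, with -2.34 against -5.38. The last one was dim in both tissues. The tissue with the higher Adam12 value therefore changed with the probe.

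The 20 Adam genes known from the male germ line fell into 4 classes of signal: 12 were not well above background in either tissue, 60.0% against 28.4% of all named genes, 4 had signal on both arrays, 3 on tooth alone and 1 on skin alone. Adam26b (chr8:44605282-44605341) had -2.81 in tooth against -1.62 in skin, a difference of 1.19 ± 0.25, just past 2-fold. Adam2, fertilin beta of sperm (chr14:66648532-66648591), had -3.36 in skin, higher there by at least 2.23-fold. Adam1a, Adam5 and Adam6b were within 2-fold, and Adam21, Adam26a and Adam39 were measured in tooth alone with no bound of 2-fold. Of 4 other germ line markers, Prm1 and Acrv1 were not well above background in either tissue, and Tex101 and Tnp1 were measured on both arrays, with differences of 0.61 and 0.58. Several of these genes have close copies, and sharing of signal between copies was not tested.

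The ADAMTS proteinases lay on both sides. Among those that cut aggrecan and versican was Adamts15, the member with the largest difference towards skin of the 44 measured on both arrays. Adamts15 (chr9:30707033-30707092) had -1.78 in tooth against 1.36 in skin, a difference of 3.14 ± 0.21 and 8.82-fold, which fell to 5.78-fold with normexp. Adamts1 (chr16:85795044-85795103) had 1.41 and 3.23, a difference of 1.82 ± 0.20. Adamts9 (chr6:92723051-92723110) went the other way, with 2.23 and 0.66, a difference of -1.57 ± 0.20, and its other probe gave -0.30.

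Within the same group Adamts4 and Adamts5, the aggrecanases of cartilage, had differences of 0.14 ± 0.21 and -0.04 ± 0.23, both smaller than their errors. Adamts8 had 0.38 ± 0.24. Adamts20 was not well above background in either tissue. Of the 6 genes of this group measured on both arrays, 2 thus passed 2-fold towards skin and 1 towards tooth, beside 11.4% and 12.3% of all genes so measured. Muscle markers were 10.1-fold higher in summed level in skin, and the part of muscle and fat in these values was not tested.

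The procollagen N-proteinases remove the N-terminal propeptide of fibrillar collagens. Adamts2 (chr11:50617472-50617531) had 4.24 in tooth against 1.31 in skin, a difference of -2.93 ± 0.20 and 7.62-fold. Adamts3 (chr5:90105946-90106005) had -2.16 in tooth and -5.61 in skin, dim there, so the tooth value was higher by at least 2.97-fold. The other Adamts3 probe was not well above background in either tissue. Adamts14 had 2.01 and 2.80, a difference of 0.80 ± 0.20 towards skin. The 3 enzymes of this step were therefore not shifted in the same direction.

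Adamts10, linked to fibrillin microfibrils, was read over an exon junction (chr17:33686520-33687435). It had -0.99 in tooth against -2.90 in skin, a difference of -1.91 ± 0.28. Adamts6, its closest relative, was well above background in tooth alone at -4.06, with no fold computed. Adamts17 had -0.44 ± 0.20, with 3.30 and 2.86. Adamts19 had -0.92 ± 0.08, with 10 spots on each array whose SD was 0.14 in tooth and 0.21 in skin. Its tooth spots, from -1.78 to -1.29, lay above its skin spots, from -2.86 to -2.27. These spots repeat 1 RNA sample on 1 array per tissue, so their spread is technical. The small error of Adamts19 reflects the number of spots, and normexp gave a difference of -0.33. All 3 genes of this group measured on both arrays were on the tooth side, where 7883 of all 15280 genes so measured lay. Of the 3, 1 was past 2-fold, beside 12.3% of all genes so measured.

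Of the other ADAMTS genes, Adamts16 (chr13:70867148-70867207) had -2.32 in tooth against -5.65 in skin, so the tooth value was higher by at least 2.66-fold. The other Adamts16 probe was not well above background in either tissue. Adamts18 (chr8:116222720-116222779) had -0.96 and 0.68, a difference of 1.64 ± 0.21, and a second probe gave signal in skin alone. Adamts7 and Adamts12, which cut cartilage oligomeric matrix protein, had -0.12 ± 0.23 and 0.63 ± 0.39. Adamts13, the von Willebrand factor protease of liver, was not well above background in either tissue.

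The ADAMTS-like proteins share the ancillary domains but have no protease domain. Adamtsl2 (chr2:26964005-26964064) had -0.55 in tooth against -3.42 in skin, a difference of -2.87 ± 0.34 and 7.33-fold, which fell to 2.54-fold with normexp. Adamtsl1, Adamtsl4 and Adamtsl5 were within 2-fold, at -0.45, 0.69 and 0.52. Adamtsl2 was thus the sole one of the 5 genes with an Adamtsl symbol past 2-fold.

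All 4 inhibitors were measured on both arrays, and they parted in pairs. Timp1, the inducible inhibitor (chrX:20451802-20451861), had 3.54 in tooth against -0.74 in skin, a difference of -4.28 ± 0.21 and 19.4-fold. Timp2, which also takes part in Mmp2 activation by Mmp14 (chr11:118163146-118163205), had 6.28 and 4.79, a difference of -1.49 ± 0.20, and its other probe gave -1.24. The difference of Timp1 was the most negative of the 44 members measured on both arrays.

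Timp4 (chr6:115196120-115196179), known from heart, muscle and fat, had -4.01 in tooth against -1.49 in skin, a difference of 2.51 ± 0.35 and 5.71-fold, which fell to 2.51-fold with normexp. Timp3, which binds to the matrix and blocks Adam17 and several ADAMTS enzymes (chr10:85811696-85811755), had 3.41 and 4.30, a difference of 0.89 ± 0.20, within 2-fold. Of the markers, skeletal muscle and fat were the lists higher in skin that match where Timp4 is known, with fat at 3.61 in summed level in skin and 0.115 in tooth. Their part in the Timp4 value was not tested.

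Of the 83 members 35 had more than 1 probe. Members measured on both arrays had 29 further probes, of which 13 were measured on both arrays, 6 on 1 array and 10 on neither. Of the 13, 11 gave the same direction as the probe standing for the gene and 2 the opposite direction (Adam11 and Adam17), with a median gap of 0.33 and a largest gap of 1.28. None was past 2-fold on both probes in opposite directions.

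Some of the members past 2-fold fell short of it under another setting. Normexp background correction, which shrinks dim values, gave -0.67 for Adam22, -0.96 for Adamts10, 0.84 for Adam26b, and bounds under 2-fold for Mmp7, Mmp28, Adam2, Adamts3 and Adamts16. It also took Adamts19 from -0.92 to -0.33. The mean of all probes gave -0.41 for Adam19, -0.54 for Adam22 and -0.94 for Adamts9, and a bound under 2-fold for Mmp28. It left Adamts3 and Adamts16 with no bound. It brought Adam12 to -1.27 and Adam5 to -1.02, both past 2-fold towards tooth. The other probes of Adam19, Adam22 and Mmp28 were not well above background in either tissue, and those of Adam12 and Adam5 were not in skin. The means of these genes therefore include background values. Median and spike-in scaling brought Adam26b to 0.94 and 0.56 and took Mmp7 and Adam2 under 2-fold, as quantile normalization did for Mmp7 and Adam2.

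**Figure D4:**
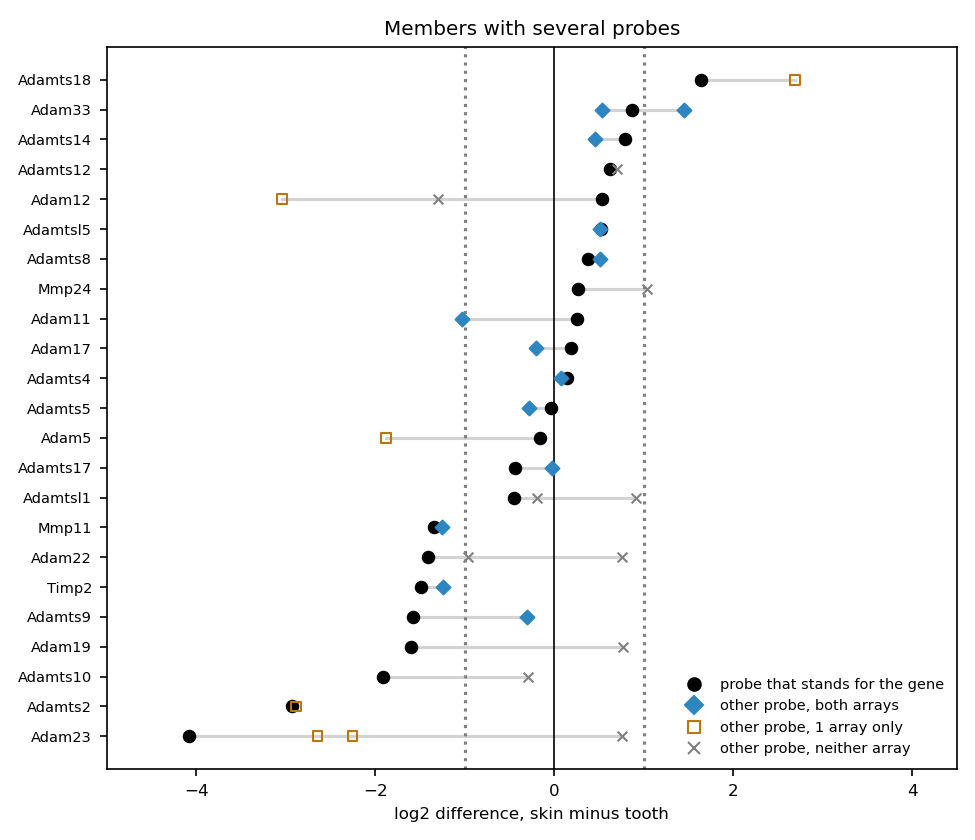
Difference between skin and tooth (log2) for each probe of the members measured on both arrays that had several probes. Black circles stand for the gene, diamonds are other probes measured on both arrays, open squares were well above background on 1 array, grey crosses on neither, and dotted lines mark 2-fold. Of the 13 diamonds 11 lie on the same side of 0 as their circle, and the diamonds of Adam11 and Adamts9 lie farthest from theirs. Among the open squares, that of Adam12 is on the other side of 0.

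Proteins that activate, anchor or restrain metalloproteinases were listed apart. Of 24 such genes 21 were measured on both arrays, 8 at least 2-fold higher in tooth and 3 in skin, with a median of -0.03. Over all genes measured on both arrays the shares were 12.3% and 11.4%. Papln, papilin, related to the ADAMTS proteins, had 3.70 in tooth against -1.41 in skin, a difference of -5.10 ± 0.21. Pcolce, which enhances removal of the procollagen C-propeptide, had 7.62 and 4.13, a difference of -3.49 ± 0.20. Serpine2, a protease inhibitor, had 1.61 and -1.87, a difference of -3.48 ± 0.23. These 3 were the regulators with the largest differences.

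The membrane-anchored inhibitor Reck was at -1.78 ± 0.22, on the same side as Timp1 and Timp2. Bsg, the inducer of Mmp synthesis known as basigin, was at -1.55 ± 0.20. Of the proprotein convertases that activate precursors, Pcsk5 was at -2.75 ± 0.23, Pcsk6 at 1.5 ± 0.20 and Furin at -0.03 ± 0.20, so the convertases lay on opposite sides. Plaur, the urokinase receptor, was at -1.68 and Lrp1, which clears proteinases from the surface, at -1.38.

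Proteins that escort Adam10 and Adam17 to the cell surface were listed too. The 5 tetraspanins that carry Adam10 ranged from -0.55 (Tspan14) to 0.68 (Tspan5), all within 2-fold. Of the inactive rhomboids that carry Adam17, Rhbdf2 was at 1.80 ± 0.20 and Rhbdf1 at 0.47 ± 0.20, both towards skin.

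The list of related metalloproteinases held 15 genes outside these families by symbol, among them Thsd4, an ADAMTS-like protein and so without a protease domain. Of the list, 8 were measured on both arrays, 3 at least 2-fold higher in tooth and 1 in skin, beside 12.3% and 11.4% of all genes. Mme, neprilysin, had 2.11 in tooth against -2.06 in skin, a difference of -4.17 ± 0.24. Pappa2, which cuts insulin-like growth factor binding proteins, was at -2.88 ± 0.23, and Thsd4 at -1.77 ± 0.24. Mmel1, a neprilysin relative, was at 2.0 ± 0.34, towards skin.

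Phex, the endopeptidase of osteoblasts and odontoblasts, had 3.05 in tooth and was not well above background in skin, with a bound of 110-fold. Ece2 was measured in tooth alone, with a bound of 2.35-fold, and Astl in skin alone, with a bound of 3.99-fold. Bmp1, the procollagen C-proteinase and the partner of Pcolce, was at -0.43 ± 0.20, with 4.60 and 4.17. The enzyme of C-propeptide removal was therefore within 2-fold where its enhancer was 11.2-fold higher in tooth.

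**Figure D5:**
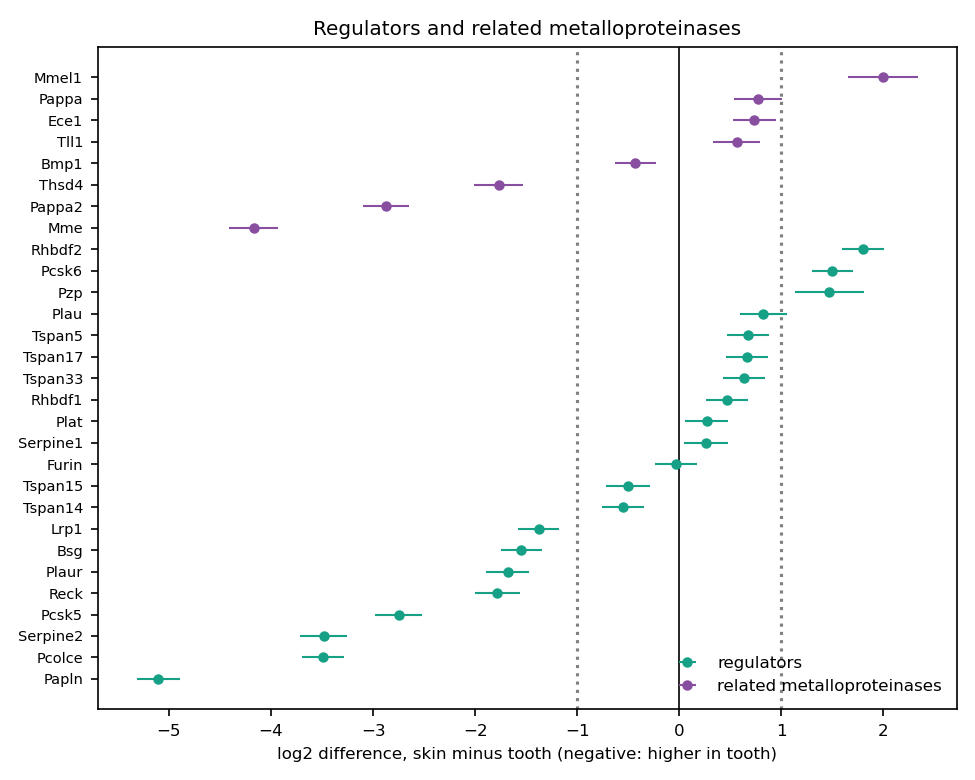
Difference between skin and tooth (log2, with the extraction software's error of the difference) for regulators of metalloproteinases and related metalloproteinases measured on both arrays. Dotted lines mark 2-fold. Papln, Mme, Pcolce and Serpine2 lie farthest towards tooth, and Mmel1 and Rhbdf2 farthest towards skin.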

How the data were processed

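RNA of 1 tooth and 1 skin sample was measured on Agilent arrays of 1 slide. The authors' files hold intensities from Agilent Feature Extraction 10.7.3.1, which subtracted background, removed trends within the array and replaced very dim values by surrogates. The authors also deposited a table of ratios, each the processed intensity over 1 factor per array. Its direction and scale were checked against the spots. Deposited yes-or-no calls per spot (a score of 0 or 1, unit other) gave signal above background. The methods name a stage 1 day later than the labels, and the labels were followed.

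Outlier spots were removed, log2 intensities averaged per probe and shifted to the 75th percentile of the non-control probes of each array (Python 3.11.15, pandas 2.3.3). A probe was measured where over 50% of its spots were well above background. A gene was represented by its probe of the highest mean among those measured on most arrays. Normexp background correction used limma 3.58.1 (R 4.3.3), offset 50. The code was tested on simulated data. Every member measured on at least 1 array could be named, and full values were given for those past 2-fold, all Timp genes and those nearest to 2-fold. Members, lists and alternatives were chosen with earlier results of these data known. The number of arrays limits the precision. Probe positions are mm9, and 81 of 83 symbols matched RefSeq. Protein sequences were not analysed here.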

Additional observations from a re-analysis of the deposited data

How the results depend on the processing

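No paired analysis was possible because each tissue had 1 array. The count of members at least 2-fold higher in tooth, 14, ranged from 12 to 21 over all alternatives, and that in skin, 5, was 4 or 5 except with dim values at their bound (8), with the lenient call (11) and without a filter on dim probes (14), where more genes were counted. The median of the members, -0.08, was -0.33 with median scaling, -0.21 with quantile normalization, -0.70 with spike-in scaling, 0.10 with normexp, -0.20 with the mean of all probes and 0.14 without a filter. The median of all genes measured on both arrays, -0.02, was -0.27 with median scaling, -0.07 with quantile normalization and -0.65 with spike-in scaling. Spike-in scaling shifted every difference by -0.62. Spike-in scaling therefore moved the folds of all 52 named differences and bounds by over 1.5 times. Spike-in scaling gave 4551 genes higher in tooth and 963 in skin, where percentile scaling gave 1885 and 1746, median scaling 2593 and 1332, the lenient call 2426 and 2813, and no filter 2892 and 3671. For members the same split was 20 and 4 under spike-in scaling. Of 52 named differences and bounds, 9 changed sign under spike-in scaling, 4 of 50 with the mean of all probes, 3 with normexp and 2 with median scaling, and each of these lay within 2-fold under percentile scaling. Of the 27 past 2-fold, 19 stayed so with normexp and between 21 and 27 with the other alternatives. With the mean of all probes 21 stayed so, and Adamts3 and Adamts16 had no bound there. Mmp9, Mmp13, Mmp20, Mmp2, Mmp14, Mmp15, Mmp11, Mmp23, Adam23, Adamts2, Adamts1, Adamts15, Adamts18, Adamtsl2, Timp1, Timp2 and Timp4 were past 2-fold in the same direction under all 8.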
